A study of Mus musculus with 10 samples.

Results

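The genes described here are 9 genes known from tuft cells, listed by name: Avil, Pou2f3, Trpm5, Ascl2, Dclk1, Sox9, Gfi1b, Chat and Alox5. They were taken from RNA sequencing of mSCLC-2405 cells cultured with or without stiripentol. Avil was picked for its large rise with stiripentol in these libraries, and the other 8 were listed to see whether they moved with it, so Avil was chosen by its difference in log2 CPM between the groups, and its values are given as a description, with no test. Of the 9 genes, 8 had a row among the 26335 rows of the deposited table and Chat was not analysed here. With stiripentol, Avil was higher in all 5 libraries, at a ratio of means of 24.7. Dclk1 was 2.70-fold lower and Sox9 was 1.68-fold higher. Pou2f3 and Trpm5 were lower in all 5 stiripentol libraries than in any control, at few reads, and Ascl2, Gfi1b and Alox5 had at most 6 reads in any library.

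mSCLC-2405 is a mouse line of small cell lung cancer, grown from a primary tumour of a model in which tumour suppressor genes, Rb1 among them, are deleted conditionally after a Cre adenovirus is given into the trachea, so both groups carry the deletions. All libraries are of this 1 line. Cells received 250 μM stiripentol, an antiseizure medication, for 48 h, and the sample records name DMSO for the cells without it. There were 5 control and 5 stiripentol libraries, and nothing in the records says that they came from separate cultures, so p-values measure the spread between these libraries. Rb1 was counted at 4.01 to 23.8 CPM over the 10 libraries, and reads summed over a gene cannot show a deletion of some of its exons. CPM, the unit used here, expresses the reads of a gene relative to the sequencing depth of the library.

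Tuft cells are rare chemosensory cells of epithelia, the airway among them. They detect substances with the signalling chain of taste cells and answer with acetylcholine, lipid mediators and cytokines. Their identity depends on POU2F3, a transcription factor that binds octamer DNA motifs, and some small cell lung cancers carry a tuft cell program with POU2F3 in place of a neuroendocrine one. Advillin, the product of Avil, is an actin-binding protein of the villin and gelsolin family that is found in tuft cells and also in sensory neurons.

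Promoter sequences are shown for Avil, the gene the list was built around, and for Dclk1 and Trpm5, which were lower in the same libraries as the octamer factor Pou2f3. The table used held none for Pou2f3 or Sox9. Each is 300 bases of RefSeq sequence (GRCm38.p6), 250 before and 50 after the start of transcription, 5′ to 3′ on the strand of the gene. They lie at chr10:127000459-127000758 (plus strand) for Avil, at chr3:55242114-55242413 (plus strand) for the first of 2 starts of Dclk1, and at chr7:143094593-143094892 (minus strand) for Trpm5. Capitals mark the letters ATGCAAA, read on either strand, and lower case is the rest.
Avil: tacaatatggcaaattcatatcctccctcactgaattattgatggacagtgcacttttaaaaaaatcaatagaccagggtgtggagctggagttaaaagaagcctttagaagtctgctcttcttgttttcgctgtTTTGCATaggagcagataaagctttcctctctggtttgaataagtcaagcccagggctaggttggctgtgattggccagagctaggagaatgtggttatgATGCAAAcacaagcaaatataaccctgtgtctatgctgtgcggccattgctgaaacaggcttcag
Dclk1: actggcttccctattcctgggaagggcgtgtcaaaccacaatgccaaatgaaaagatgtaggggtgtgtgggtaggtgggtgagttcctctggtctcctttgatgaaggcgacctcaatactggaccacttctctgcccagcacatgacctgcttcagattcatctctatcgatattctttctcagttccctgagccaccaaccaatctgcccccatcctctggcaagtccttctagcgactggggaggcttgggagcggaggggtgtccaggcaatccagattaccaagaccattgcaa
Trpm5: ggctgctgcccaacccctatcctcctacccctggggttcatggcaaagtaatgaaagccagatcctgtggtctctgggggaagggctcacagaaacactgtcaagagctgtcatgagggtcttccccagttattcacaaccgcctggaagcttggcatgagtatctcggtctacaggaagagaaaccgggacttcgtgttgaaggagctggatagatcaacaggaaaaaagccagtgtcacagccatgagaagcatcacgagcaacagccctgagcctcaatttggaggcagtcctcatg
The octamer ATGCAAAT, searched on both strands, was in none of these windows, and it was in 1.74% of 32851 promoter windows of the same length. The 7 letters ATGCAAA, which overlap the octamer and were chosen after the sequences were seen, occurred 2 times in the Avil window, once on each strand, and not in the windows of Dclk1 or Trpm5. They were in 4.63% of all windows. Of the 9 genes, 7 had a promoter in the table used. The windows of Gfi1b, Ascl2 and Alox5 and of the other start of Dclk1 also held neither the octamer nor the 7 letters. A match of letters is a description of the sequence and no measure of binding.

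The libraries held 22375625 to 65299372 reads in control and 55015760 to 60670901 reads with stiripentol, as recovered from the deposited log2 CPM. Control 5 was the shallowest library. A floor of 3 reads, the limit that a count of 0 allows, corresponded to 0.0459 to 0.134 CPM, and covers counting error only. Within each group, the libraries fell into 2 sets by the clustering of all genes, with a correlation of 0.983 to 0.997 within a set and of 0.920 to 0.939 between the sets. Controls 4 and 5 and stiripentol 1 and 2 are called the pair, and controls 1 to 3 and stiripentol 3 to 5 the trio; no label says what sets them apart, and the sets of both groups were matched by their size. Controls 1 to 3 had also been normalized with another value for a gene with no reads (-4.82 log2 CPM) than the other 7 libraries (-4.74). With 1 mean per set and group, which leaves 2 values a group, limma called 0 of 12306 genes, and 1116 had p under 0.05 before adjustment. Every call below counts the libraries of a set as separate replicates, and changes within a set are given for the members and for some of the other genes.

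Avil lies at chr10:127000709-127020994 on the plus strand (GRCm38, the mm10 build, GENCODE M21). In controls 1 to 5 it had 1.94, 0.845, 4.76, 0.487 and 0.626 CPM. In stiripentol libraries 1 to 5 it had 25.2, 25.1, 48.6, 59.3 and 55.3 CPM. The groups did not overlap, and the lowest stiripentol library was above the highest control, control 3. In reads, these levels were 524 over all controls and 12388 over all stiripentol libraries, so that the controls were low but not at 0. The mean was 1.73 ± 1.79 CPM (SD, n = 5) in control and 42.7 ± 16.5 CPM (SD, n = 5) with stiripentol. On the log2 CPM scale, the means were 0.31 ± 1.31 and 5.32 ± 0.62 (SD, n = 5 each), a difference of 5.01. The difference was 5.42 in the pair and 4.74 in the trio. The controls of the pair had the least Avil, with a mean of 0.557 CPM against 2.52 CPM in the controls of the trio. The order was the same with stiripentol, with 25.1 CPM in the pair and 54.4 CPM in the trio.

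**Figure D1:**
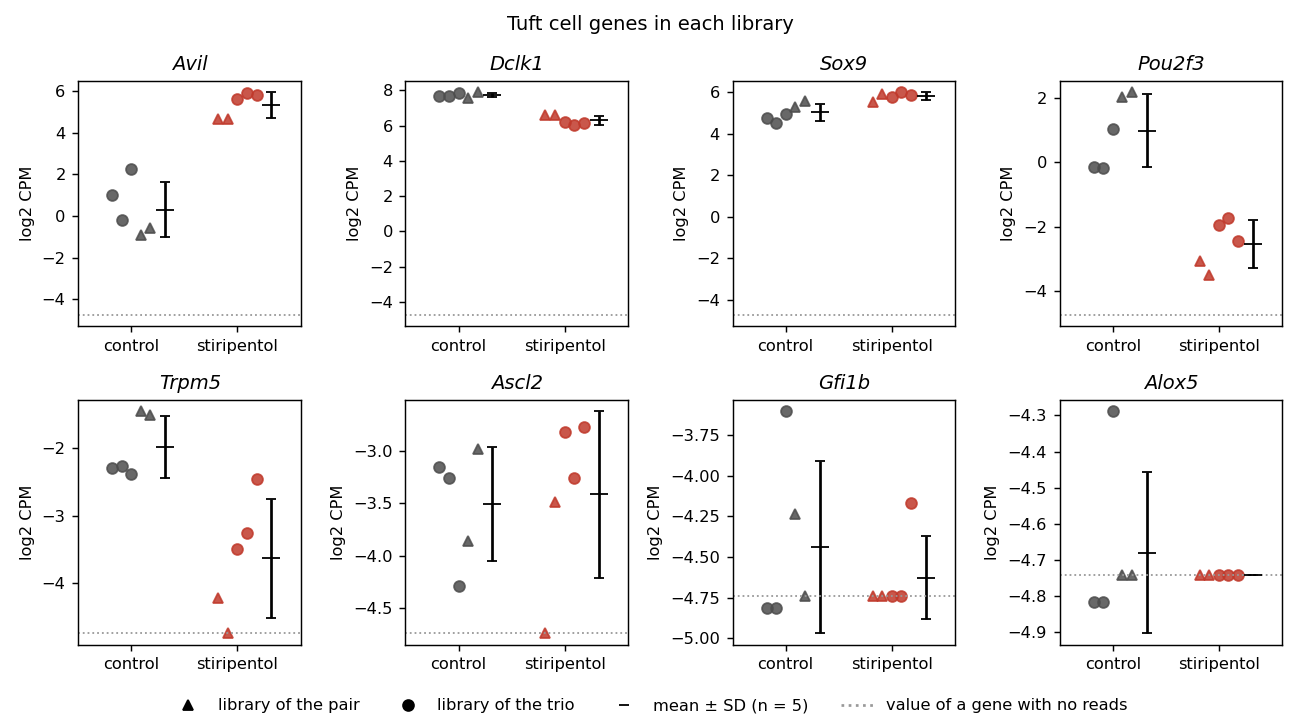
Log2 CPM (vertical axis, a log2 scale) of the 8 measured tuft cell genes in each control (grey) and stiripentol (red) library, with triangles for the pair, circles for the trio, and the mean ± SD of 5 libraries as a bar. The dotted line is -4.74, the value of a gene with no reads in 7 libraries (-4.82 in controls 1 to 3); Avil is above every control in all 5 stiripentol libraries, Dclk1, Pou2f3 and Trpm5 are below every control, and the groups of the other genes overlap.

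Pou2f3, the transcription factor that tuft cells require, lies at chr9:43123939-43210369 on the minus strand. In controls 1 to 5 it had 0.873, 0.845, 2.03, 4.09 and 4.51 CPM. In stiripentol libraries 1 to 5 it had 0.0824, 0.0517, 0.225, 0.267 and 0.145 CPM. No stiripentol library reached a control, and the highest controls were the 2 of the pair. There were 596 reads in the controls against 45 with stiripentol, and stiripentol 2 had 3 reads. The mean was 2.47 ± 1.75 CPM (SD, n = 5) in control and 0.154 ± 0.0915 CPM (SD, n = 5) with stiripentol, 16.0-fold lower. Its mean of -0.77 log2 CPM over all libraries was under the filter of 0, so it was compared by the exact two-sided permutation test over all arrangements of the libraries, with p = 0.00794, the smallest that 5 against 5 can give. Adjusted over the 13050 genes under the filter with at least 1 read, that is 0.148 (exact permutation), the lowest adjusted value any of them had. With no filter, limma gave a log2 change of -3.52 and an adjusted p of 0.00487 over 26335 genes. The mean was 64.1-fold lower in the pair and 5.87-fold lower in the trio. Among genes under the filter, 7.39% had an exact p under 0.05 and were lower, and in 3.2% the groups did not overlap with the stiripentol libraries lower. In bulk RNA, fewer cells that express a gene and less RNA of it per cell cannot be told apart.

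Ascl2, a basic helix-loop-helix factor of stem cells and of tuft-type small cell lung cancer, lies at chr7:142966829-142969264 (minus strand) and had 14 reads over the controls and 19 with stiripentol. No library had more than 6 reads of it (exact permutation p = 0.706), and several were under the floor. Gfi1b, a zinc finger repressor of blood cells and tuft cells at chr2:28609450-28621982 (minus strand), had 4 reads over the controls and 1 with stiripentol (exact permutation p = 0.722). At this depth no difference of either gene was detectable.

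Sox9, a transcription factor of epithelial progenitors that tuft cells share with other cells, lies at chr11:112782224-112787760 on the plus strand. Its levels in controls 1 to 5 were 27.3, 23.0, 30.6, 39.6 and 47.6 CPM. With stiripentol they were 45.5, 59.4, 55.4, 64.1 and 58.2 CPM. Control 5 was above stiripentol 1, so the groups overlapped, and both controls of the pair were above those of the trio. The mean was 33.6 ± 9.90 CPM (SD, n = 5) in control and 56.5 ± 6.92 CPM (SD, n = 5) with stiripentol. Sox9 rose by 0.79 on the log2 CPM scale (standard error 0.20, limma adjusted p = 0.0148). A call in this direction was made for 13.6% of the 12306 genes tested. The change was 1.14 in the trio (limma adjusted p = 0.000114 in the trio alone) and 0.26 in the pair (limma adjusted p = 0.136 in the pair alone). Without the controls normalized apart, it was 0.37 (limma adjusted p = 0.150). That comparison keeps only controls 4 and 5, both of the pair, against all 5 stiripentol libraries.

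Trpm5, the cation channel at the end of the taste signalling chain, lies at chr7:143069153-143094642 on the minus strand. It had 11, 10, 10, 21 and 7 reads in controls 1 to 5, which is 0.168, 0.172, 0.157, 0.330 and 0.313 CPM. It had 1, 0, 3, 4 and 8 reads in stiripentol 1 to 5, which is 0.0165, 0, 0.0519, 0.0668 and 0.145 CPM. The groups did not overlap in CPM, although control 5, the shallowest library, had 1 read fewer than stiripentol 5. The mean was 0.228 ± 0.0856 CPM (SD, n = 5) in control and 0.0561 ± 0.0566 CPM (SD, n = 5) with stiripentol, 4.07-fold lower. Within the trio it was 1.89-fold lower, and the 2 stiripentol libraries of the pair held 1 read in all. On the log2 CPM scale, with its prior, the difference was -3.00 in the pair and -0.75 in the trio. The exact permutation p was 0.00794, and 0.148 when adjusted over genes under the filter. With no filter, limma gave an adjusted p of 0.0341 for Trpm5, and calls of lower genes were 6.63% of all rows in that fit. Tssc4, on the opposite strand, shares 220 exonic bases with Trpm5. Its log2 change was -0.47 (limma adjusted p = 0.233), and whether counting used the strand is not given in the sources used here, so reads of these bases cannot be told apart.

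Dclk1, a microtubule-associated kinase used as a marker of tuft cells and also found in neurons, lies at chr3:55242364-55539068 on the plus strand. In controls 1 to 5 it had 209, 207, 233, 193 and 239 CPM. In stiripentol libraries 1 to 5 it had 95.4, 96.3, 73.7, 64.9 and 69.7 CPM. The groups did not overlap, and the highest stiripentol library, stiripentol 2, was well below the lowest control, control 4. The mean was 216 ± 19.0 CPM (SD, n = 5) in control and 80.0 ± 14.8 CPM (SD, n = 5) with stiripentol. Dclk1 fell by 1.45 on the log2 CPM scale (standard error 0.13, limma adjusted p = 0.000115). Lower calls were made for 14.1% of the genes tested, and calls in either direction for 27.7%. The change was -1.16 in the pair and -1.64 in the trio, and it stayed between -1.52 and -1.38 when each library was left out in turn. The 4 uncharacterized genes with a row that overlap Dclk1 had at most 19 reads in a group, against 58134 reads of Dclk1 in the controls.

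Chat, which makes acetylcholine, lies at chr14:32408203-32465989 (minus strand) and was not analysed here. Alox5, the lipoxygenase that starts leukotriene synthesis, lies at chr6:116410077-116461178 (minus strand). It had 1 read, in control 3, and none in the other libraries (exact permutation p = 1), so each stiripentol library allowed at most its floor of 0.0494 to 0.0545 CPM.

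Of the 8 measured genes, Avil, Dclk1 and Sox9 had a mean log2 CPM above 0. Besides Avil, 1 of these was called higher and 1 lower, beside 13.6% and 14.1% of all genes tested. Over all genes with at least 1 read, the groups did not overlap with stiripentol lower in 8.59% and with stiripentol higher in 7.41%. The 3 members lower without overlap were Pou2f3, Trpm5 and Dclk1, and Avil was the only one higher without overlap. In the controls, the libraries with the most Avil were those of the trio and the libraries with the most Pou2f3 those of the pair. Ascl2 had opposite signs in the sets, at 14 and 19 reads in all.

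**Figure D2:**
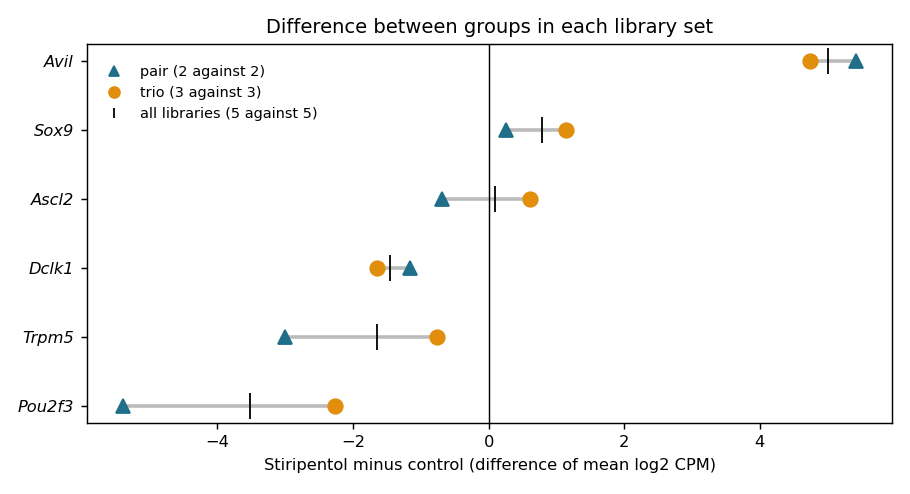
Difference of mean log2 CPM, stiripentol minus control (horizontal axis), in the pair (triangles, 2 against 2), the trio (circles, 3 against 3) and all libraries (vertical ticks, 5 against 5). Avil and Sox9 are above 0 in both sets, Dclk1, Trpm5 and Pou2f3 below 0 in both, with Pou2f3 at -5.39 in the pair and -2.27 in the trio, and Ascl2 lies on either side of 0.

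A wider list of 63 other tuft cell genes was compared in the same fit. Of these, 52 had a row and 22 a mean log2 CPM above 0, of which 2 rose, 3 fell and 17 did not pass the test. The shares of genes called in each direction were 13.6% and 14.1% over all genes. The median log2 change was -0.20 over the 22 genes and -0.06 over all genes tested. With a term for the library set in the model, 6 rose and 8 fell, beside 23.6% and 27.1% of all genes in that fit. In the pair alone, 4 rose and 10 fell, beside 25.7% and 46.5%, and in the trio alone 8 rose and 6 fell, beside 37.7% and 27%.

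Among 10 other transcription factors and coactivators of tuft cells, 5 were tested and 1 was called. Etv1, an ETS factor, had 17.4 to 25.3 CPM in control and 4.33 to 12.2 CPM with stiripentol, without overlap. It fell by 1.38 on the log2 CPM scale (standard error 0.30, limma adjusted p = 0.00797), with changes of -2.01 in the pair and -0.96 in the trio. Without the controls normalized apart, the adjusted p of limma was 0.0903. The homeobox genes Hmx2 and Hmx3, which airway and taste-type tuft cells express, had log2 changes of 0.51 (limma adjusted p = 0.168) and 0.52 (limma adjusted p = 0.108). Spib, an ETS factor, had 19 reads in control and 57 with stiripentol, with an exact permutation p of 0.0238 that adjusted to 0.263.

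In the taste signalling chain, 10 of 14 other genes had a row and 4 were tested. Atp2a3, a calcium pump of the endoplasmic reticulum, had 4.10, 4.97, 7.79, 1.18 and 0.581 CPM in controls 1 to 5. With stiripentol it had 11.8, 13.4, 66.4, 71.7 and 73.0 CPM. Every stiripentol library was above every control, and in both groups the trio was above the pair, the order seen for Avil. Atp2a3 rose by 3.76 on the log2 CPM scale (standard error 0.80, limma adjusted p = 0.00718). Plcb2, the phospholipase that acts upstream of Trpm5, had 24 reads in control and 44 with stiripentol (exact permutation p = 0.294). Gng13, a G protein subunit of taste cells, had 4 and 3 reads (exact permutation p = 1), and the taste G protein Gnat3 was not analysed here.

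Among 12 other cytoskeletal and surface genes, 3 were tested. Krt8, a keratin of simple epithelia, had 1049 to 1274 CPM in control and 793 to 974 CPM with stiripentol. On the log2 CPM scale Krt8 fell by 0.36 (standard error 0.10, limma adjusted p = 0.0202). That call was lost with median-of-ratios scaling (limma adjusted p = 0.103), without the controls normalized apart (0.0816) and without stiripentol 2 (limma adjusted p = 0.0546). Among 13 other effector enzymes and cytokines, Pla2g4a was called of 5 tested. This cytosolic phospholipase, which releases arachidonic acid, had a mean of 114 ± 10.7 CPM (SD, n = 5) in control and 173 ± 10.8 CPM (SD, n = 5) with stiripentol, without overlap. Pla2g4a rose by 0.61 (standard error 0.09, limma adjusted p = 0.00159). Genes for the steps after this release did not pass over all 10 libraries. Ptgs1, a cyclooxygenase, had a log2 change of 0.19 (limma adjusted p = 0.527), with -0.59 in the pair and 0.72 in the trio. Alox5ap, the partner of Alox5, had one of -0.43 (limma adjusted p = 0.580), with -2.15 in the pair and 0.72 in the trio. Hpgds, a prostaglandin D synthase, had 11 reads in control and 3 with stiripentol (exact permutation p = 0.127). Ltc4s, the leukotriene C4 synthase, had 28 and 19 reads (exact permutation p = 0.333). Il17rb, the receptor of the tuft cytokine IL-25, had 5 and 2 reads (exact permutation p = 0.722), and Il25 itself was not analysed here.

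The wider list also held 14 kinases and adaptors, all with a row. Of these, 5 were tested, 0 were called higher and 1 lower, beside 13.6% and 14.1% of all genes tested. Of 30 genes of the wider list under the filter, 2 were higher and 0 lower at an exact p under 0.05, beside 6.31% and 7.39% of all genes under the filter. The one besides Spib was Sh2d6, an adaptor with an SH2 domain that marks tuft cells, named after its values were seen. Sh2d6 had 0.0306, 0.0690, 0.126, 0.0629 and 0 CPM in controls 1 to 5 and 0.313, 0.483, 1.04, 1.47 and 1.62 CPM with stiripentol. The groups did not overlap, with 18 reads against 284 (exact permutation p = 0.00794, adjusted to 0.148).

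**Figure D3:**
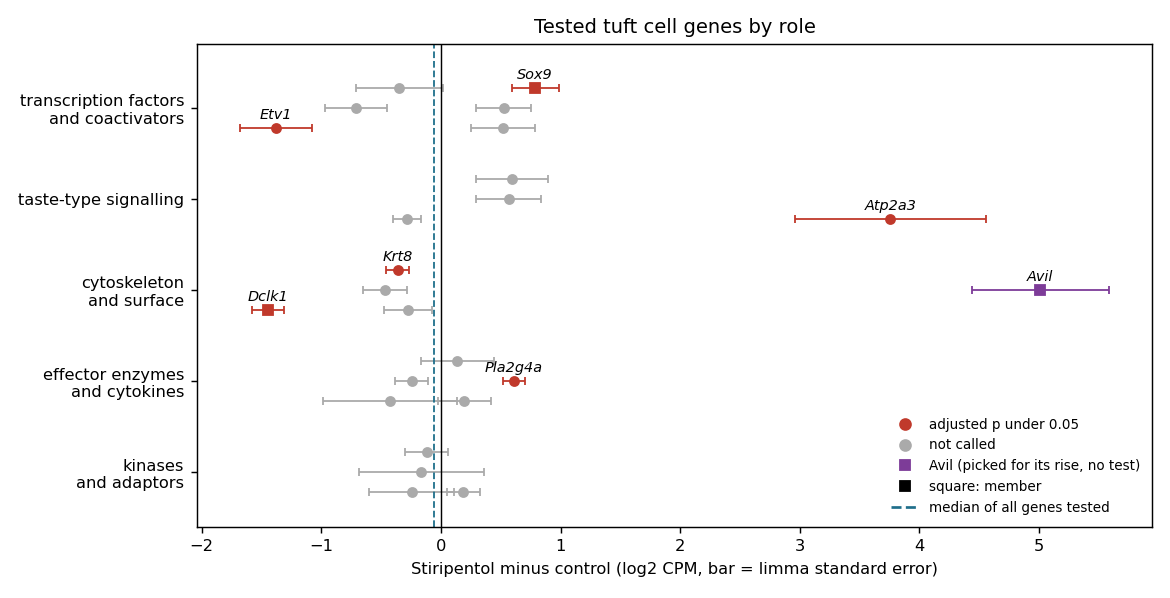
Log2 change with stiripentol (horizontal axis, with limma standard errors as bars) of the tested tuft cell genes, in rows by role; squares are the members and circles the wider list, red marks an adjusted p under 0.05, grey no call and purple Avil, which has no test. Atp2a3 (3.76) is the called gene nearest to Avil (5.01), and called genes lie on both sides of the median of all genes (dashed, -0.06). 1 gene of the wider list is not drawn.

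The genes next to Avil and those of its protein family were compared next. Tsfm, a mitochondrial elongation factor on the opposite strand, shares 165 exonic bases with Avil and had 4038 reads in control and 4536 with stiripentol. Its log2 change was 0.14 (standard error 0.21, limma adjusted p = 0.620), far under the change of Avil. Ctdsp2, a phosphatase gene on the side of the Avil start, fell by 0.52 (standard error 0.10, limma adjusted p = 0.00410). Mettl1, a tRNA methyltransferase beyond Tsfm, rose by 0.87 (standard error 0.29, limma adjusted p = 0.0445), by 1.75 in the pair and by 0.29 in the trio (limma adjusted p = 0.178 in the trio alone). The Mettl1 call was also lost without any 1 of control 3, control 4, control 5 and stiripentol 1 to 4, at limma adjusted p values of 0.0648 to 0.0942.

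Of the 7 other villin and gelsolin family genes, 5 were tested, none rose and 1 fell, beside 13.6% higher and 14.1% lower calls over all genes. Svil, which encodes supervillin, fell by 0.71 (standard error 0.21, limma adjusted p = 0.0288), and its call was lost without control 2, 3 or 5 or stiripentol 2, at limma adjusted p values of 0.0511 to 0.0698. Gelsolin itself, Gsn, had a log2 change of -0.28 (limma adjusted p = 0.272). Vill had one of 0.20 (limma adjusted p = 0.645), Capg one of 0.22 (limma adjusted p = 0.522) and Flii one of -0.10 (limma adjusted p = 0.511). Vil1, the villin of brush borders and tuft cells, had 41 reads in control and 66 with stiripentol (exact permutation p = 0.254). Scin had 1 read in all libraries. The difference between the change of Avil and those of its family was not tested, since Avil was picked for its change.

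**Figure D4:**
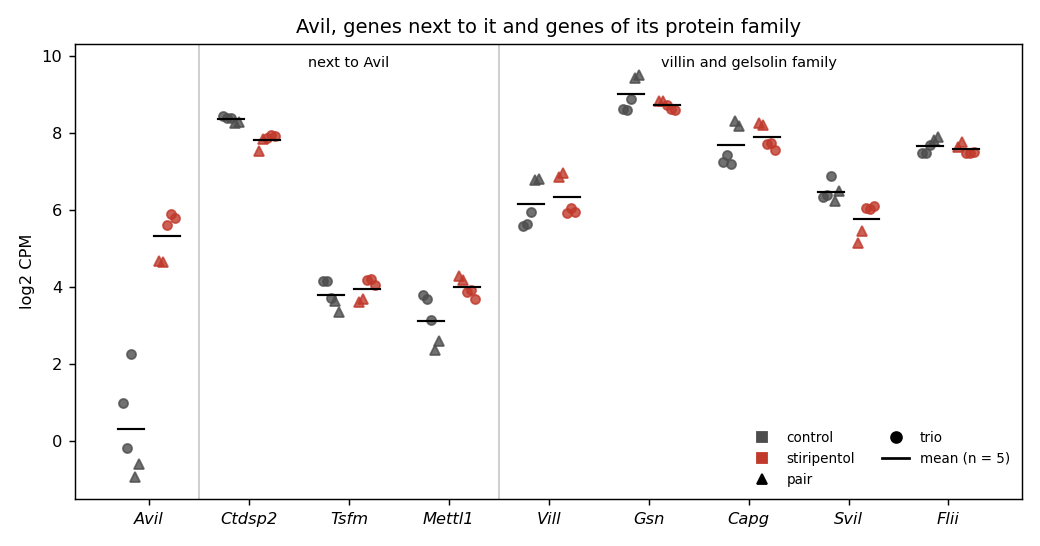
Log2 CPM (vertical axis, a log2 scale) of Avil, of the genes next to it and of its protein family in each control (grey) and stiripentol (red) library, with triangles for the pair, circles for the trio and a line at the mean of 5 libraries. The Avil groups lie 5.01 apart, whereas those of Tsfm lie 0.14 apart and those of the family 0.71 or less.

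Avil was also followed by its likeness to other genes. By Pearson correlation of log2 CPM over the 10 libraries, the tested genes most like Avil included Usp39 (0.990), Nbdy (0.984), Tm9sf4 (0.983) and Qrsl1 (0.982). These 4 were higher with stiripentol, Usp39 by 1.05 and Nbdy by 0.59 on the log2 scale. Avil varies mostly between the groups, so a high correlation with it selects genes of that direction. Their direction is therefore no separate result. The 10 libraries share their groups and sets, so these values are a description.

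Genes of other cell types were examined beside the tuft cell genes. Over 106 such genes, 83 had a row and 18 were tested, of which 4 rose and 5 fell, beside 13.6% and 14.1% of all genes tested. In sensory neurons, which also express Avil, 11 of 12 listed genes had a row, 6 of them had under 10 reads in all libraries, and Tac1 was at 0 in every library. P2rx3, an ATP-gated channel of sensory neurons, had 2.79, 3.47, 2.01, 0.597 and 1.12 CPM in controls 1 to 5 and 4.43, 4.62, 25.6, 27.0 and 28.1 CPM with stiripentol. Without overlap of the groups, P2rx3 rose by 2.95 (standard error 0.68, limma adjusted p = 0.0106). Its call was lost with same-numbered libraries treated as blocks (limma adjusted p = 0.0574). Summed over the list, sensory neuron genes had 1.98 to 5.47 CPM in control and 4.75 to 30.4 CPM with stiripentol, of which P2rx3 alone made up 0.597 to 3.47 and 4.43 to 28.1 CPM. Isl1, a homeobox factor of these neurons, had 49 reads in control and 41 with stiripentol (exact permutation p = 0.659). Pou4f1, another such factor, had 303 and 160 reads (exact permutation p = 0.254), and the sodium channel gene Scn10a had 30 and 5 (exact permutation p = 0.0476). Prph had 86 and 192 reads (exact permutation p = 0.413) and Drgx 0 and 8 (exact permutation p = 0.0476). Of the 10 genes of this list under the filter, 1 was higher and 1 lower at an exact p under 0.05. Over all genes under the filter, these shares were 6.31% and 7.39%. The part of sensory neuron genes in the level of Avil was not tested.

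The line was also checked against neuroendocrine markers, the usual program of small cell lung cancer. Syp, a synaptic vesicle protein, had 57 reads in control and 53 with stiripentol, and Neurod1 was not analysed here. Ncam1, an adhesion molecule of neuroendocrine cells, rose by 0.46 (standard error 0.10, limma adjusted p = 0.00911). Of the 10 neuroendocrine genes under the filter, 0 were higher and 1 lower at an exact p under 0.05, beside 6.31% and 7.39% of all such genes. The lower gene was Nkx2-1, with 79 reads in control and 22 with stiripentol (exact permutation p = 0.00794). The summed neuroendocrine level was 93.8 to 121 CPM in control and 127 to 157 CPM with stiripentol. Nearly all of that sum was Ncam1, at 92.8 to 117 CPM in control and 126 to 154 CPM with stiripentol. For blood cells, which express Gfi1b and Alox5, Ptprc had 7 reads in control and 0 with stiripentol. Cd68, a lysosomal protein of macrophages and other cells, rose by 3.21 (standard error 0.44, limma adjusted p = 0.000819). The summed macrophage level was 6.50 to 19.0 CPM in control and 59.0 to 103 CPM with stiripentol, nearly all of it Cd68 (4.12 to 17.9 and 55.1 to 103 CPM). Of the other macrophage genes with a row, Lyz2 had a log2 change of 0.41 (limma adjusted p = 0.648), Csf1r had 44 reads in control and 29 with stiripentol, and Itgam had 2 and 1. Abca3, a lipid transporter of alveolar cells, rose by 0.60 (limma adjusted p = 0.0382), a call lost without any 1 of 6 libraries, controls 1 to 3 and stiripentol 1, 2 and 4, at up to 0.0906. Of the 5 alveolar genes under the filter, 0 were higher and 1 lower at an exact p under 0.05, beside 6.31% and 7.39% of all such genes. The lower gene was Hopx, with 16 reads in control and 4 with stiripentol (exact permutation p = 0.0238). Foxj1, the factor of ciliated cells, fell by 2.02 (limma adjusted p = 0.00408), with changes of -3.35 in the pair and -1.13 in the trio. Of the 5 ciliated genes under the filter, 0 were higher and 0 lower at an exact p under 0.05. Of 6 fibroblast genes tested, 4 fell, namely the collagens Col3a1 (-5.71, and -2.95 in the pair and -7.56 in the trio) and Col1a2 (-2.30) and the platelet-derived growth factor receptors Pdgfrb (-1.49) and Pdgfra (-1.27, and -0.12 in the pair and -2.03 in the trio), beside 14.1% of all genes. The summed fibroblast level was 404 to 696 CPM in control and 152 to 185 CPM with stiripentol. The part of these other markers in the tuft cell values was not tested.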

How the data were processed

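RNA was sequenced from mSCLC-2405 cells, in 5 control and 5 stiripentol libraries. The authors' methods name a QuantSeq 3′ mRNA kit and the sample records TruSeq total RNA; the submitters' processing notes name mm10. Aligner, annotation, filters and strand are not given in the sources used here. For each gene, log2 CPM from GENAVi were deposited by the authors in every library, with a prior of 0.837 to 2.38 reads per library added before the logarithm, and columns of their own group means, ratios and p-values, which were not used. Columns were matched to samples by name.

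Whole reads were recovered from 100% of the log2 CPM values, within 0.01 read. Deposited log2 CPM were compared with limma 3.58.1 in R 4.3.3 (lmFit, then eBayes with its trend option and without its robust option), tested on 12306 genes whose mean was above 0, with Benjamini-Hochberg adjustment and calls at an adjusted p under 0.05. The unit is log2, so the count test was limma voom on recovered reads, as an alternative. Genes under the filter were compared on recovered CPM by two-sided exact permutation of libraries (Python 3.11.15, numpy 2.4.6, pandas 2.3.3, scipy 1.17.1). The script was tested on simulated data. Clusters were by average linkage on 1 minus the correlation.

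Named were the 9 genes, at most 5 called genes per list and direction, 15 genes whatever their values, up to 3 neighbours on each side of Avil and the 5 genes most correlated with it. Sh2d6, Trp63, Nkx2-1, Ngfr, Tssc4 and the checks Rb1, Tac1, Syp, Isl1, Pou4f1, Scn10a, Prph, Drgx, Hopx, Lyz2, Csf1r, Itgam and Ptprc stand outside that rule, as do uncalled genes of the Avil family. The members and lists were chosen with earlier results of these data known. Alternatives were a replicate block, leaving out single libraries, library and normalization sets, scalings, pseudocounts of 0.1 and 1 CPM, filters and a minimum log2 change of 1. Chat was not analysed here, and the results of some genes under the rule are not reported here.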

Additional observations from a re-analysis of the deposited data

Results flagged for a closer look

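Among 83 groups of 5 values, 4 held a library far from the others by Dixon's criterion (a gap over 0.71 of the range), and chance gives about 4.15, or 5%. Gfi1b had its only stiripentol read in stiripentol 5 (0.0182 CPM), and Alox5 its only read in control 3 (0.0157 CPM). A single read beside libraries with none always meets this criterion, so the number that chance gives does not hold for such groups. Hmx3 was lowest in control 3, with 0.74 log2 CPM, and Ctdsp2 was lowest in stiripentol 1, with 7.53 log2 CPM.

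The effects of 2 genes of lipid mediator synthesis had opposite signs in the library sets, with no overlap of groups within a set. Ptgs1 had a log2 difference of -0.59 in the pair and 0.72 in the trio, and Alox5ap one of -2.15 in the pair and 0.72 in the trio. The difference between the sets was not tested.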

How the results depend on the processing

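Of 575 single-gene log2 changes over 24 genes and the alternatives, 502 kept direction and side of the threshold, 67 were no longer called, 3 became called and 3 changed sign, all in genes not called. Those were Vill within 1 normalization set (-0.44), and Capg there (-0.36) and in the pair (-0.0203). The exact p of Ascl2, whose sign turned without control 3 or stiripentol 5, was 0.246 to 0.992 leaving out each library. Sox9 was called higher in every alternative but the pair alone, 1 normalization set, 1 mean per library set (chosen after seeing the data) and a minimum change of 1, each giving 0 members called higher. Dclk1 was called except with 1 mean per set (adjusted p = 0.345), which gave 0 calls in every list in both directions. With no filter, 3 members were called lower, Dclk1, Pou2f3 and Trpm5, beside 6.63% of all rows. The Avil difference was 6.08 within 1 normalization set, and 4.70 to 5.50 leaving out each library. The wider tuft list had 2 higher and 3 lower calls: 6 and 8 with a term for the set, 4 and 10 in the pair, 8 and 6 in the trio, each beside more calls over all genes than the 13.6% and 14.1% of all libraries, 5 higher by quantile normalization (17% of all genes) and 1 higher with a minimum change of 1. Calls over all genes were 23.6% higher and 27.1% lower with that term. They were 25.7% and 46.5% in the pair, and 37.7% and 27% in the trio. Leaving out each library, 1 to 3 of the wider tuft list were lower, with 1 without stiripentol 2. The Avil family had 0 higher and 1 lower call: 1 higher in the trio, 2 lower in the pair, 0 lower with no filter or a minimum change of 1, and 0 to 1 lower leaving out each library. Other cell types had 4 higher and 5 lower calls. Higher calls were 9 in the trio and 2 in 1 normalization set or with a minimum change of 1. Lower calls were 10 in the pair and 8 with no filter. The fit with no filter also tested genes under the filter, and its lower calls were 6.63% of all rows. Within 1 normalization set, Etv1, Krt8, Svil, Ncam1, Abca3, Pdgfra and Ctdsp2 also lost their calls, and Pdgfra in the pair alone. That normalization set left controls 4 and 5, both of the pair, against all 5 stiripentol libraries of both sets. In its values, effects of scaling, of the library set and of fewer controls cannot be told apart. Quantile normalization moved the median of all genes from -0.06 to 0.05. Within-set values of genes under the filter carry no test.

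Same-numbered libraries did not deviate together (correlations -0.24 to 0.0612). Except for number 3 (0.0612), each number joins a library of the pair to one of the trio. The check therefore cannot decide whether the numbers pair the libraries. With the replicate block, 1020 genes were higher and 1062 lower against 1674 and 1740, 2 other cell type genes were higher, and the exact p of Pou2f3 and Trpm5 was 0.0625, the smallest that 5 pairs allow. Depth limits genes with few reads, and control 5 had the fewest in total.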

Other observations

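Trp63 and Nkx2-1 are given as values and were named after these were seen. Trp63, the factor of basal cells, had 582 reads in control and 19 with stiripentol, at 0.267 to 3.14 CPM against 0 to 0.164 CPM (exact permutation p = 0.00794). Nkx2-1, a factor of lung epithelium and of many neuroendocrine lung tumours, had 79 and 22 reads (exact permutation p = 0.00794). Both had an adjusted p of 0.148 over the genes under the filter, the exact test allowing no lower p than 0.00794. In both, the groups did not overlap, with stiripentol lower, as in 3.2% of the genes under the filter. On the log2 scale, the difference of Trp63 was -3.03 in the pair and -4.45 in the trio, and that of Nkx2-1 was -2.74 in the pair and -0.71 in the trio. Of the 5 basal genes under the filter, 1 was higher and 1, Trp63, lower at an exact p under 0.05. Over all genes under the filter, these shares were 6.31% and 7.39%. The higher basal gene was Ngfr, with 3 reads in control and 17 with stiripentol (exact permutation p = 0.0159).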
